A study of Mus musculus with 2 samples.

Results

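Chromatin loops that were called in the uterus in estrus and had no counterpart in diestrus were described here, among loops with enough contacts to be well covered. A loop was well covered when it held at least 50 contacts and at least 3 times the contacts expected from its local background, and loops on the X chromosome were left out. It was called only in estrus when the diestrus list held no loop on the same chromosome with both anchor starts within 20 kb of its own. Of 24131 loops listed in estrus, 12069 were well covered, and 522 of these, or 4.33%, had no diestrus counterpart (95% Clopper-Pearson interval 3.97% to 4.70%). The 522 loops lay on 19 chromosomes and held 54306 contacts, 1.31% of all contacts at estrus loops.

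The loops came from Hi-C of the uterus of intact, untreated CD-1 mice aged 2 months, an outbred stock. Hi-C ligates DNA ends that are neighbours in the nucleus and reads the joined ends as pairs. There was 1 library from estrus and 1 from diestrus, and no source used here says whether it pooled animals. The lists held 24131 loops with 4153485 contacts in estrus and 26240 loops with 4533525 contacts in diestrus. At the 10176 well-covered estrus loops with a diestrus loop at the identical position, the median log2 ratio of contacts, estrus over diestrus, was -0.0332, and that of the expected contacts was -0.0715. With 1 library per stage, differences could not be checked against replicates and no p-values are given. Intervals cover counting error or chance over the loops listed, not the spread between animals. The libraries came from whole tissue, so a loop in fewer cells and a loop with fewer contacts per cell cannot be told apart, and a Hi-C list holds no expression marker against which the tissue could be checked.

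A chromatin loop joins distant anchors, commonly where cohesin extrudes DNA until it is halted by the insulator protein CTCF bound in convergent orientation. Other loops join promoters to enhancers. In the rodent uterus, estrus follows the rise in estrogen that drives epithelial growth and fluid secretion, and in diestrus progesterone from the corpora lutea acts on epithelium, stroma and muscle. Estrogen receptor alpha and the progesterone receptor, both nuclear receptors, bind DNA largely at sites distant from promoters.

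The promoters of 7 genes whose anchors carry loops called only in estrus are printed, since these genes recur in the results. Each sequence runs 5′ to 3′ on the gene's strand from 250 bases before to 50 bases after the gene start, from RefSeq on GRCm38.p6, the assembly that mm10 names. Capitals mark a match to the CTCF core (CCA, any 2 bases, AG, any 2 bases, GGC) or to the hypoxia response core ACGTG, on either strand. The positions are chr13:28953650-28953949 (minus strand) for Sox4, chr11:31370012-31370311 (minus strand) for Stc2, chr3:123236100-123236399 (minus strand) for Synpo2, chr3:52268087-52268386 (plus strand) for Foxo1, chr6:52245761-52246060 (minus strand) for Hoxa11, chr19:59943605-59943904 (minus strand) for 1 of the starts of Rab11fip2, and chr9:37401722-37402021 (plus strand) for Robo4. Of the 7, Rab11fip2 held a CTCF core and Hoxa11 held 2 hypoxia cores, while the other 5 held no match in these windows. The Robo4 promoter is the one of the 7 in an anchor with no diestrus anchor start within 20 kb.
Sox4: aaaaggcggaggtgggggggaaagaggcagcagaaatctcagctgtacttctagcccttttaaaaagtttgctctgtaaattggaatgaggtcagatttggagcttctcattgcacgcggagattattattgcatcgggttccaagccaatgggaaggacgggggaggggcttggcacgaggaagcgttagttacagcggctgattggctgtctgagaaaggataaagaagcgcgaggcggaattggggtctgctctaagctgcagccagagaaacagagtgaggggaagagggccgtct
Stc2: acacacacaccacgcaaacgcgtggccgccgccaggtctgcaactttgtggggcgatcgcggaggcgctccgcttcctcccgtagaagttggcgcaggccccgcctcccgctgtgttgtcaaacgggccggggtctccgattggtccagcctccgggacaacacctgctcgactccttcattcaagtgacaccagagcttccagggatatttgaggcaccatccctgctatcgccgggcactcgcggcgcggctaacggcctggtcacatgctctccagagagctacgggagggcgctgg
Synpo2: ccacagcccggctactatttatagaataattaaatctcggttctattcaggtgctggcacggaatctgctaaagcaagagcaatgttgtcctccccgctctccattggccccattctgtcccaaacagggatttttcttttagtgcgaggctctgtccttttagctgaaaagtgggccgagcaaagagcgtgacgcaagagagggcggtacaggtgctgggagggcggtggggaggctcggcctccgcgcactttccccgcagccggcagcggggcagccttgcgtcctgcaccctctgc
Foxo1: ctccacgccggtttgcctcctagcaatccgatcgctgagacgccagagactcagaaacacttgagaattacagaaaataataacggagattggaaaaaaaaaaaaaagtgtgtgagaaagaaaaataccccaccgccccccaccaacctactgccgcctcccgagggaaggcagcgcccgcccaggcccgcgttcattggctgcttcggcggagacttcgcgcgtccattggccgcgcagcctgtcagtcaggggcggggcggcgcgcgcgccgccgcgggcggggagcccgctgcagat
Hoxa11: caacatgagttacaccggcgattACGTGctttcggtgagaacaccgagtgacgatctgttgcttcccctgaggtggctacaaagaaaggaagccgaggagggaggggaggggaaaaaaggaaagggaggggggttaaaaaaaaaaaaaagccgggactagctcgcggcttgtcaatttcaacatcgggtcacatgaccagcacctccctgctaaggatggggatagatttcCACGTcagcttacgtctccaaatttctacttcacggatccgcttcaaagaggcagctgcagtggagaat
Rab11fip2: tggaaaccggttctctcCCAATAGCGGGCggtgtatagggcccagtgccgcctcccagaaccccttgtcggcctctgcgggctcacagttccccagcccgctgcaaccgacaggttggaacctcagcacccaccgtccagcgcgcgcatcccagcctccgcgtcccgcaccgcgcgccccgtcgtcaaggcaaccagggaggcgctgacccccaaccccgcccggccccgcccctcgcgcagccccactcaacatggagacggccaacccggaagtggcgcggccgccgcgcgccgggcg
Robo4: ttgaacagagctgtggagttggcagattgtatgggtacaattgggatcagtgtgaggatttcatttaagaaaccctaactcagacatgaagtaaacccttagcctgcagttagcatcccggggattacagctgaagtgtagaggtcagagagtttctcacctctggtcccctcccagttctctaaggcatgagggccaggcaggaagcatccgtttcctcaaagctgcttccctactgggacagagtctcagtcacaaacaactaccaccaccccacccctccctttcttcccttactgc

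The loops called only in estrus held 50 to 602 contacts, with a median of 77.5 (73.0 to 82) and quartiles of 59.0 and 125.8. Their strength, the observed contacts over the contacts expected from the surrounding donut of pixels, had a median of 3.34 (3.30 to 3.39). Of the 522, 339 (64.9%) held fewer than 100 contacts and 310 (59.4%) had a strength under 3.5, so most lay near the limits that chose them. For description, the 11547 well-covered estrus loops with a counterpart had medians of 174.0 contacts and 4.64 times the expected number. Loops of strength 5 or more made up 29 (5.56%) of the loops called only in estrus and 43.2% of those with a counterpart. Contacts and strength were used by the rule, so these values are a description and no comparison.

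Well-covered loops called only in diestrus, chosen by the same rule with the lists swapped, numbered 867 of 12464, or 6.96% (6.52% to 7.42%). They had medians of 82 contacts and 3.41 times the expected number. Without chromosome 7 the counts were 499 of 11435 (4.36%, 4.0% to 4.75%) in estrus and 740 of 11719 (6.31%, 5.88% to 6.77%) in diestrus. In both lists the share of single-stage loops was highest among weak loops. Between 3 and 3.5 times the expected number it was 12.2% in estrus and 17.5% in diestrus, and at 7 times or more it was 0.228% (5 loops) and 1.5% (32 loops). Among loops of 50 to 74 contacts it was 13.4% in estrus and 20.3% in diestrus, and at 300 contacts or more 0.336% (10 loops) and 1.18% (37 loops).

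**Figure D1:**
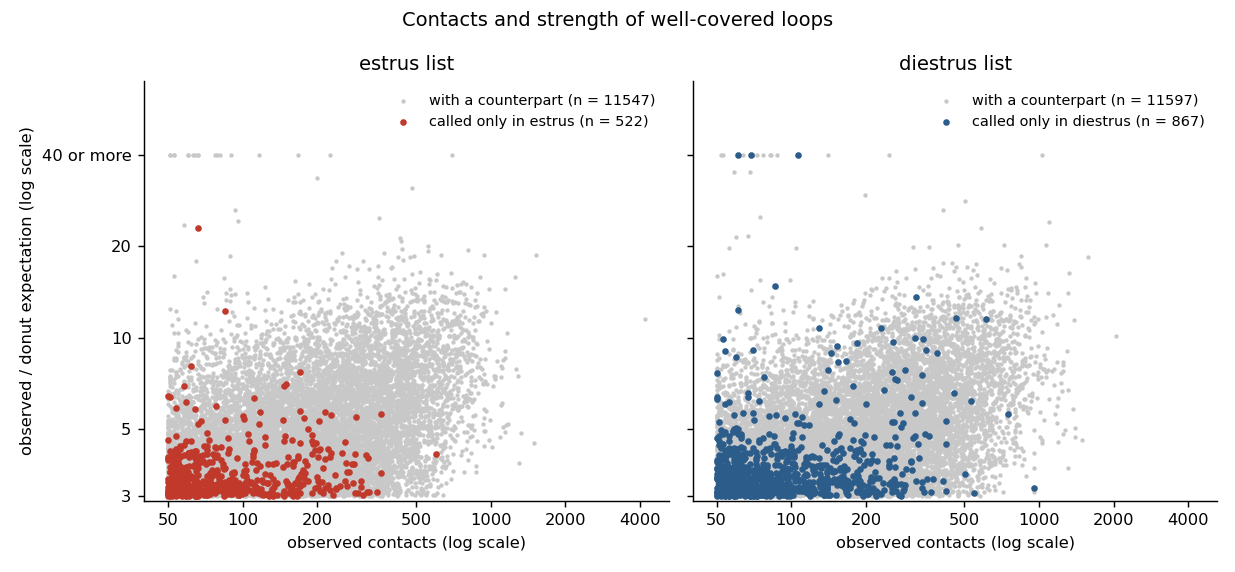
Observed contacts (x axis, log scale) and strength, observed over donut-expected contacts (y axis, log scale, values of 40 or more drawn at 40), of well-covered loops in the estrus list (left) and the diestrus list (right). Coloured points are loops called in that stage alone, 522 in estrus and 867 in diestrus, and grey points have a counterpart. Most of the 522 lie in the lower left, with 310 under a strength of 3.5.

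Several loops stood just across each limit. There were 73 loops called only in estrus with 50 to 54 contacts, and 93 further estrus loops without a counterpart held 45 to 49 contacts at a median strength of 3.53. Strength was between 3.0 and 3.1 in 97 of the 522, and between 2.9 and 3.0 in 104 loops left out, at a median of 82 contacts. For 122 of the 522 the nearest diestrus loop was 30 kb away, while 229 well-covered estrus loops had it at 20 kb and 1142 at 10 kb. On the X chromosome 10 of 352 well-covered loops had no counterpart. At any coverage, with the X chromosome left out, 4474 estrus loops had none.

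The columns of the caller that the rule did not read differed as well. HiCCUPS, the loop caller of Juicer, merges neighbouring enriched pixels into 1 loop, and 318 (60.9%, 56.6% to 65.1%) of the loops called only in estrus rested on a single pixel. Among estrus loops with a counterpart this was 1336 (11.6%, 11% to 12.2%), and among loops called only in diestrus 489 (56.4%, 53.0% to 59.7%). Loops of 5 or more pixels numbered 22 (4.21%) among the 522, against 49.6% of those with a counterpart. Against the largest of the 4 expected values that the caller gives, from the donut, the bottom-left, the horizontal and the vertical neighbourhood, median strength was 2.21 (2.18 to 2.26) in loops called only in estrus and 3.25 (3.22 to 3.28) in those with a counterpart. Strength was 3 or more against each of the 4 in 58 (11.1%) and in 58.2% of them. The largest of the 4 q-values exceeded 0.01 in 34 loops (6.51%, 4.55% to 8.98%) called only in estrus and in 48 (0.416%, 0.307% to 0.551%) with a counterpart. All these columns are made from the same contacts as the donut strength, so they are no independent measure, and they are given as a description.

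**Figure D2:**
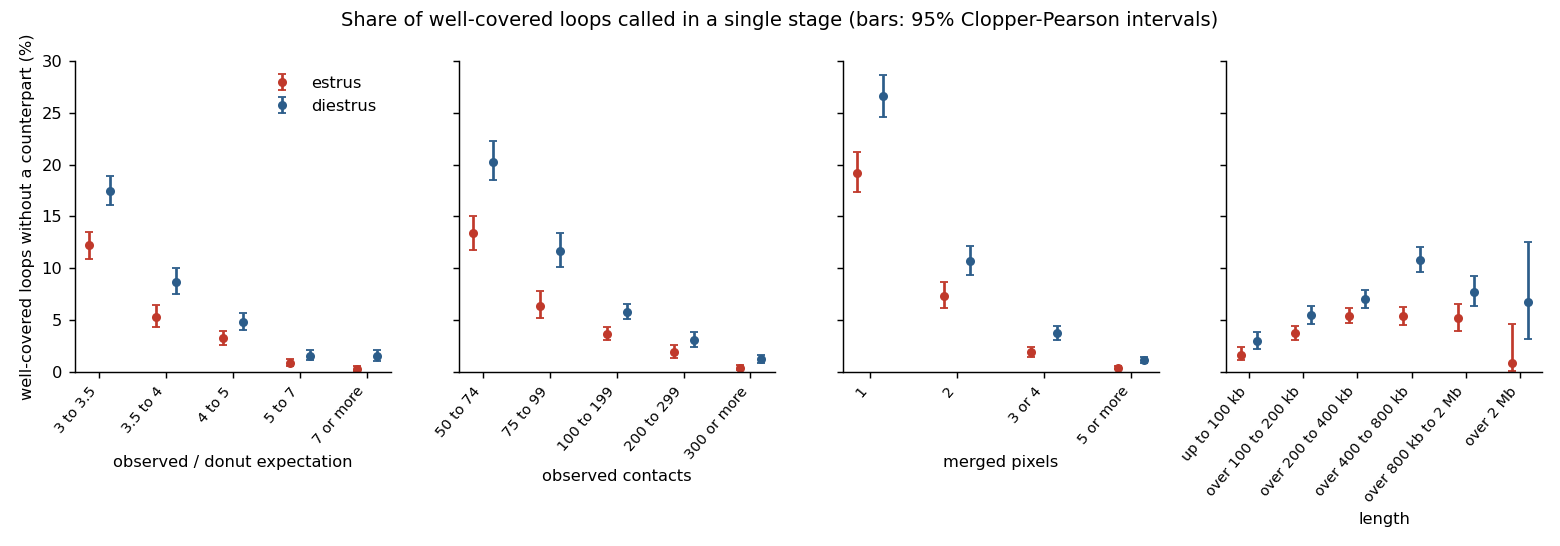
Share of well-covered loops without a counterpart in the other list (y axis, percent), in estrus (red) and diestrus (blue), by strength, contacts, merged pixels and length (x axes). Points are shares and bars are 95% Clopper-Pearson intervals. The share falls with strength, contacts and pixels in both lists, from 19.2% at 1 pixel to 0.383% at 5 or more pixels in estrus.

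The loops called only in estrus spanned 50 to 6560 kb, with a median length of 320 kb (300 to 340) and quartiles of 200 and 530 kb. Estrus loops with a counterpart had a median of 260 kb (250 to 260), and loops called only in diestrus one of 380 kb (340 to 400). The share of well-covered estrus loops without a counterpart was 1.65% up to 100 kb, 3.69% between 100 and 200 kb, 5.39% between 200 and 400 kb, 5.33% between 400 and 800 kb and 5.14% between 800 kb and 2 Mb. In diestrus the shares over the same classes were 2.97%, 5.43%, 7.0%, 10.8% and 7.69%. The class of 400 to 800 kb held 132 loops called only in estrus and 293 only in diestrus. Above 2 Mb there was 1 in estrus (0.847%, 0.0215% to 4.63%) and there were 9 in diestrus (6.77%, 3.14% to 12.5%). The shortest loop ran from Slc16a14, a monocarboxylate transporter gene, over 50 kb with 59 contacts at 3.05 times the expected number. The longest ended at Tfpi, which encodes an inhibitor of blood coagulation, with 52 contacts at 3.8 times the expected number. A diestrus loop of 6410 kb ended at the same Tfpi anchor and held 32 contacts at 5.2 times.

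By chromosome, the share of well-covered loops called only in estrus ran from 3.06% (11 loops) on chromosome 19 to 5.38% (40 loops) on chromosome 3. Chromosome 11 held most, 42, followed by chromosome 3 with 40 and chromosome 1 with 38. On chromosome 7 the share was 3.63% (23 loops, 2.31% to 5.39%) in estrus and 17.0% (127 loops, 14.4% to 19.9%) in diestrus.

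Most loops called only in estrus joined anchors that the diestrus list also held. An anchor was taken as new when no anchor of any diestrus loop started within 20 kb of it. In 337 loops (64.6%, 60.3% to 68.7%) neither anchor was new, and in 239 (45.8%) both lay in bins that were also diestrus anchors. A single anchor was new in 175 (33.5%) and both were new in 10 (1.92%, 0.922% to 3.49%). Among loops called only in diestrus, 57.2% had no new anchor, 36.9% had 1 and 5.88% (4.41% to 7.66%) had 2. Known anchors of the 522 carried a median of 3.0 diestrus loops.

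Where both anchors were known, 112 of the 337 (33.2%, 28.2% to 38.5%) were also joined in diestrus through a chain of 2 loops that met at a shared anchor. This was the case for 34.6% (33.7% to 35.5%) of estrus loops with a counterpart. Over the 742 loop ends whose anchor sent diestrus loops in the same direction, the estrus loop reached beyond all of them at 286 (38.5%), fell between them at 313 (42.2%) and stopped short of all of them at 143 (19.3%). In loops called only in diestrus these shares were 39.4%, 41.0% and 19.5% of 1121 ends.

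The nearest diestrus loop, measured by the larger of the distances between left starts and between right starts, lay at a median of 60 kb (50 to 60) from a loop called only in estrus. It was 30 kb away for 122 loops (23.4%), 40 to 50 kb for 124 (23.8%), 60 to 100 kb for 156 (29.9%), 110 to 200 kb for 90 (17.2%) and farther for 30 (5.75%), up to 740 kb. For loops called only in diestrus the median was 80 kb (70 to 80), and 138 (15.9%) had it beyond 200 kb. In the 122 pairs that lay 30 kb apart, the estrus loop had medians of 102.5 contacts and 3.60 times the expected number. Its diestrus neighbour had medians of 149.5 contacts and 3.99 times. The estrus list can hold that neighbour as well, as at Sox4 and Synpo2 below, and how often it did is not given here. These medians therefore compare positions and not stages. An anchor within 20 kb of one that carried a loop called only in diestrus was found in 88 (16.9%) of the 522.

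**Figure D3:**
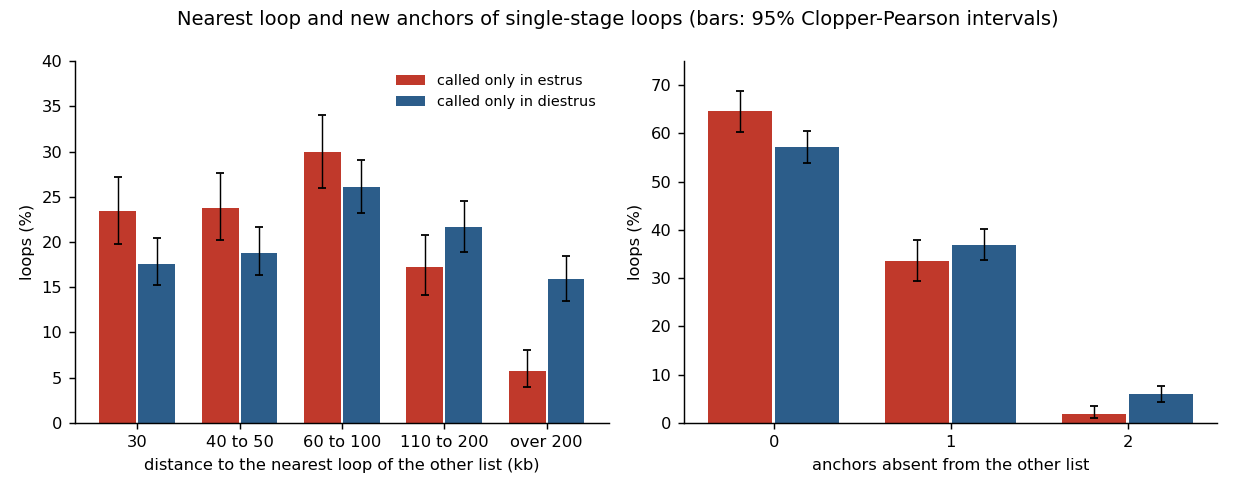
Left, share of loops (y axis, percent) by distance to the nearest loop of the other list (x axis, kb), for loops called only in estrus (red, n = 522) and only in diestrus (blue, n = 867). Right, share of the same loops by the number of anchors absent from the other list. Bars start at 0 and error bars are 95% Clopper-Pearson intervals. In estrus 23.4% lay at 30 kb and 64.6% had no new anchor.

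New anchors rarely clustered. The 195 new anchor ends fell in 182 bins, which formed 176 clusters when starts up to 100 kb apart were joined. Of these, 158 held 1 loop end, 15 held ends of 2 loops, 1 held ends of 3 loops and the other 2 held both ends of 1 loop. In diestrus, by the same rule, 422 new anchor ends gave 42 clusters with ends of 2 loops and 11 with ends of 3 or more, 8 of the 11 on chromosome 7. Over all anchors of the 522 loops, 957 of 999 bins belonged to 1 loop, 39 to 2 and 3 to 3.

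The cluster of 3 lay on chromosome 4 in a gene-free stretch beyond Tox, which encodes a nuclear protein with a high-mobility-group box. The anchor at 7850001 to 7860000 was 130 kb from the nearest diestrus anchor and 281 kb from the nearest gene, Car8, a carbonic-anhydrase-related gene. A loop of 1170 kb joined it to the Tox end at 6680001 with 149 contacts (126.0 to 174.9, exact Poisson) at a strength of 7.01. A loop of 1290 kb to 6560001, between Tox and Nsmaf, held 147 contacts (124.2 to 172.8) at 6.92 times, and one of 1040 kb to the body of Tox held 54 contacts (40.6 to 70.5) at 3.02 times. The first and the second rested on 5 and 7 pixels.

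The same anchor carried 3 more estrus loops outside the limits, with 54 contacts at 2.73 times, 58 at 2.78 times and 49 at 3.83 times, so 6 loops in estrus stood against 0 in the diestrus list. The anchor 150 kb farther out, at 8000001, was looped to the Tox side in both stages. Its 1440 kb loop held 106 contacts at 6.44 times in estrus and 82 at 5.16 times in diestrus, and its 1310 kb loop 39 contacts in either stage, at 2.60 times in estrus and 2.42 times in diestrus. The outer loops were thus listed in both stages and the inner set in estrus.

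The other pairs of new anchors included a bin inside Cdkal1, which encodes a tRNA-modifying enzyme, on chromosome 13. From the anchor at 28950001, which holds Sox4, a transcription factor gene of the SRY-box family, 3 loops called only in estrus ran into Cdkal1. Sox4 was the only gene with an end at 3 of the 522 loops and was chosen after its values were seen. The Sox4 loop of 680 kb to the new anchor at 29630001 held 215 contacts (187.2 to 245.7), a strength of 3.97. Its nearest diestrus loop, 30 kb short of it, held 471 contacts at 9.07 times, and the estrus list held that loop as well, with 411 contacts at 8.91 times. The Sox4 loop of 240 kb, to the second new anchor at 29190001, held 165 contacts at 3.12 times, and that of 550 kb held 79 at 3.14 times.

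The Cdkal1 bins at these new anchors were also joined to 29830001, a known anchor with 11 diestrus loops. The loop of 200 kb from 29630001 held 285 contacts (252.9 to 320.1) over 10 pixels at 4.15 times, and that of 640 kb from 29190001 held 64 contacts at 3.04 times. In total 14 estrus loops and 12 diestrus loops had an anchor within 20 kb of the Sox4 anchor. The 880 kb loop from Sox4 to 29830001 was of equal strength in both lists, with 384 contacts in estrus and 453 in diestrus at 12.6 times.

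At Cftr on chromosome 6, the gene of the epithelial chloride channel, bins at 18170001 and 18250001 were both joined to 18370001 in Cttnbp2, over 200 kb with 209 contacts (181.6 to 239.3) at 3.34 times and over 120 kb with 237 contacts (207.8 to 269.2) at 3.19 times. The nearest diestrus loop started outside both, at 18130001, and held 173 contacts at 5.38 times. On chromosome 1, an anchor 223 kb from Tgfb2, a growth factor gene of the TGF-beta family, was joined to the bin that abuts Tgfb2 over 320 kb with 158 contacts (134.3 to 184.6) at 4.59 times, and to 185680001 over 710 kb with 65 contacts at 3.22 times. No diestrus loop had an anchor within 20 kb of it. Pairs also lay on chromosome 11, between 71350001 and 71510001 with 202 contacts at 4.04 times and between 71510001 and 71730001 with 97 at 3.03 times, and on chromosome 9 in Fam76b at 13840001. The 2 loops at Fam76b held 151 contacts at 3.31 times and 67 at 3.15 times, the second reaching Cwc15, a splicing factor gene, and Kdm4d, a histone demethylase gene.

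**Figure D4:**
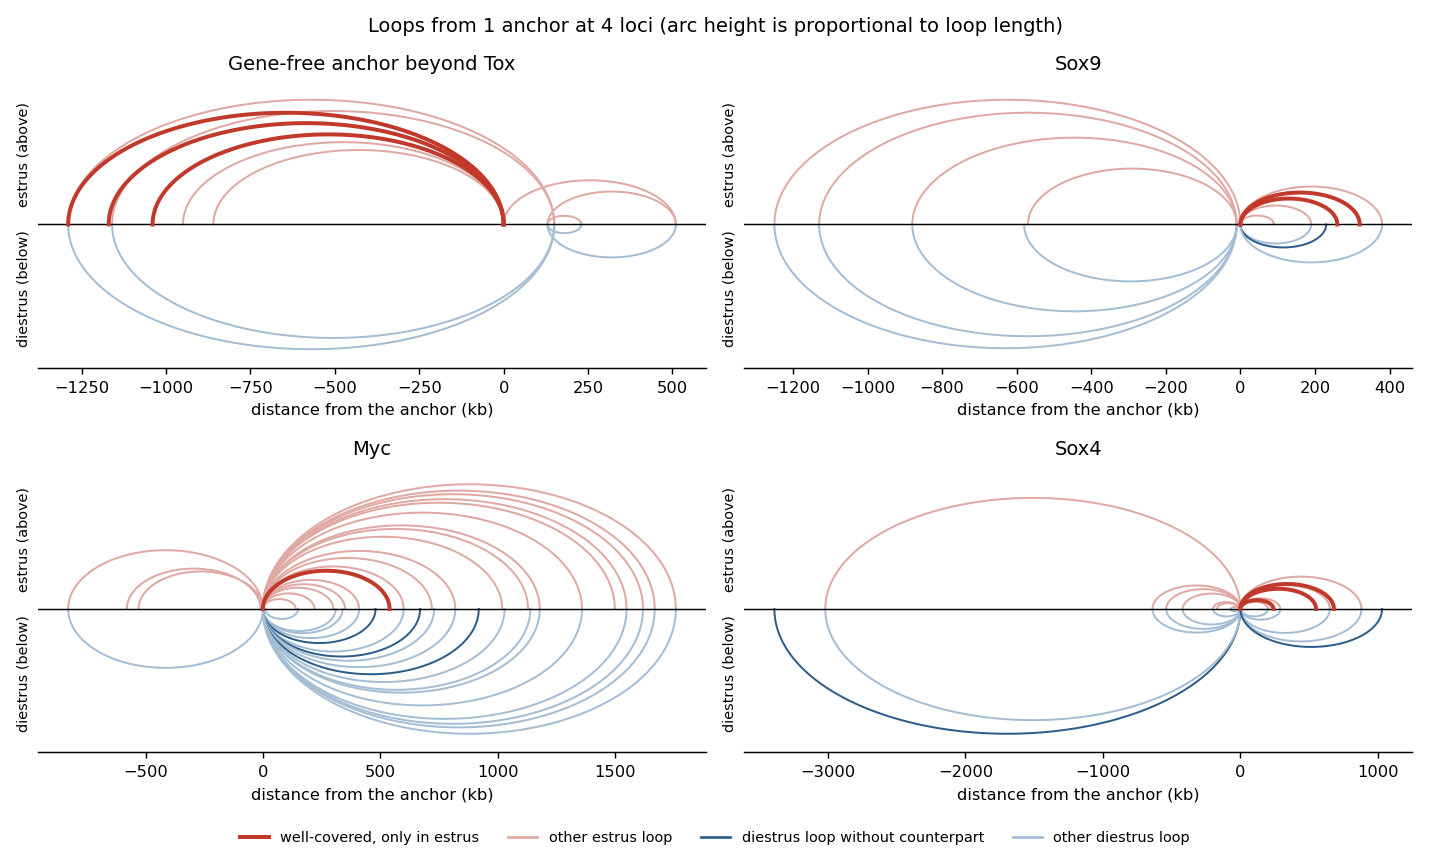
Loops from 1 anchor at 4 loci, as arcs whose height is proportional to loop length, with estrus above and diestrus below the line (x axis, distance from the anchor in kb). Thick red arcs are well-covered loops called only in estrus, pale arcs are other loops, and dark blue arcs are diestrus loops of any coverage without an estrus counterpart. The anchor beyond Tox has 6 arcs above and 0 below, the further arcs in that panel belonging to the outer anchor, while Sox9, Myc and Sox4 have loops on both sides of the line.

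Both anchors were new in a loop from the body of the estrogen receptor gene into its neighbour, a result chosen after its values were seen. On chromosome 10 it joined 4860001 to 4870000 in the body of Esr1, the gene of estrogen receptor alpha, to 5080001 to 5090000 in Syne1, a nuclear envelope gene. It spanned 220 kb and held 103 contacts (84.1 to 124.9) over 4 pixels at a strength of 3.51. The Esr1 anchor lay 30 kb and the Syne1 anchor 60 kb from the nearest diestrus anchor. A second estrus loop from the Esr1 anchor, of 300 kb, held 82 contacts at 2.74 times, below the limit on strength, and also lacked a counterpart. The nearest diestrus loop enclosed the first, from 4710001 to 5140001 over 430 kb, with 206 contacts (178.8 to 236.1) at 2.44 times. By its ends alone Esr1 was at 0 of the 522 loops, with 3 loops in estrus and 3 in diestrus, and so was Epas1, the gene of HIF-2 alpha, with 2 and 2.

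At Pgr, the gene of the progesterone receptor (chromosome 9, 8898900 to 8968611), the bin at 8960001 that holds the gene's downstream end was joined to 9370001 in estrus over 410 kb, with 103 contacts (84.1 to 124.9) at a strength of 3.27. A diestrus loop 80 kb away, the nearest, ended at the same 9370001 and held 354 contacts (318.1 to 392.9) at 7.66 times. An estrus value at the position of that diestrus loop is not given here. The Pgr anchor had 4 loops in estrus and 4 in diestrus, of which 3 had counterparts in each list. Foxo1 encodes a forkhead transcription factor of decidualizing stroma. Its loop of 200 kb to 52460001 on chromosome 3 held 159 contacts (135.2 to 185.7) at 3.02 times, just past the limit, and its far anchor was new. A second loop from the neighbouring bin, of 1190 kb, held 64 contacts at 5.84 times. The strongest loops at Foxo1 were in both lists, with 399 contacts at 17.1 times in estrus and 329 at 14.6 times in diestrus over 750 kb.

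Among genes that pattern the uterus, Hoxa10 and Hoxa11, homeobox genes needed for implantation, share the anchor at 52240001 on chromosome 6. It was joined to 51000001 in estrus over 1240 kb with 105 contacts (85.9 to 127.1) at 4.82 times the donut expectation and 1.95 times the largest of the 4. The nearest diestrus loop, 30 kb away, held 250 contacts (220 to 283.0) at 8.04 times, and an estrus loop 1 bin from that one held 170 at 9.33 times. Sox9, a transcription factor gene of glandular epithelium, sent 2 loops called only in estrus to new anchors on chromosome 11. The loop of 260 kb held 91 contacts (73.3 to 111.7) at 3.17 times and that of 320 kb 119 contacts (98.6 to 142.4) at 3.18 times. A diestrus loop of 230 kb without a counterpart, 30 kb from the first, held 76 contacts at 2.31 times.

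On the same side of Sox9, the loops that were in both lists had a higher strength in estrus. Over 190 kb there were 191 contacts (164.9 to 220.1) at 4.67 times in estrus and 98 (79.6 to 119.4) at 2.51 times in diestrus, intervals that do not overlap. Over 380 kb there were 127 contacts at 6.88 times in estrus and 114 at 5.25 times in diestrus, with overlapping intervals. On the other side the loop of 1250 kb in estrus held 116 contacts at 6.84 times and its counterpart of 1240 kb in diestrus 152 at 7.04 times. Tbx18, a T-box transcription factor gene of urogenital mesenchyme, had a loop of 370 kb with 110 contacts (90.4 to 132.6) at 4.13 times, and a diestrus loop 30 kb away held 113 contacts at 2.23 times. Tbx18 also had an end at a well-covered loop called only in diestrus, and over all loops it had 5 in estrus and 7 in diestrus.

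Myc, a growth regulator gene that estrogen induces in the uterus, was joined in estrus to a new anchor at 62520001 on chromosome 15. The loop of 540 kb held 196 contacts (169.5 to 225.4) at a strength of 4.26. The loop of 600 kb next to it held 131 contacts (109.5 to 155.4) at 2.69 times in estrus and 143 (120.5 to 168.5) at 2.51 times in diestrus. On the same side of Myc, diestrus had loops of 480, 670 and 920 kb without a counterpart, with 129, 157 and 89 contacts at 2.5, 2.91 and 2.81 times, none of which reached the limit on strength. In all 21 estrus and 19 diestrus loops had an anchor within 20 kb of that of Myc.

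Of genes for structural and contractile proteins, Synpo2 encodes an actin-binding protein of muscle. Its loop of 120 kb to Sec24d on chromosome 3 held 314 contacts (280.2 to 350.7) at 4.11 times on a single pixel. The loop of 90 kb, 30 kb short of it, held 520 contacts (476.3 to 566.7) at 4.82 times in estrus and 549 (504.0 to 596.9) at 4.17 times in diestrus. Synpo2 also had a well-covered loop called only in diestrus, of 270 kb with 51 contacts at 5.26 times. Postn, the gene of the matrix protein periostin, had a loop of 620 kb with 78 contacts at 3.18 times, and the diestrus loop 40 kb away held 154 at 4.97 times. Gsn, which encodes the actin-severing protein gelsolin, contains the left anchor of a loop of 100 kb with 363 contacts (326.6 to 402.3) at 5.61 times on a single pixel. In diestrus a loop left from the same bin over 50 kb with 638 contacts at 4.6 times. Gja1 encodes connexin 43, the gap junction protein of the myometrium, and was chosen after its values were seen. Its loop of 470 kb held 131 contacts at 3.17 times, and the loops of 630 kb from the same anchor held 716 at 13.1 times in estrus and 778 at 13.5 times in diestrus.

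Further genes chosen after their values were seen encode signalling proteins and transcription factors. Stc2, the gene of the secreted glycoprotein stanniocalcin 2, lay at 2 loops called only in estrus on chromosome 11. Over 130 kb it held 146 contacts (123.3 to 171.7) at 5.35 times, 150 kb from the nearest diestrus loop, and over 390 kb, to Chac2, 58 contacts (44.0 to 75) at 4.42 times. A diestrus loop 30 kb from the second held 41 contacts (29.4 to 55.6) at 2.64 times. The estrus list held a counterpart of that diestrus loop, with 62 contacts (47.5 to 79.5) at 5.21 times. No diestrus loop had an end of Stc2 in an anchor, but 2 diestrus loops had an anchor in the adjoining bin, which lies wholly within Stc2. Edn1, the gene of the vasoconstrictor endothelin 1, was joined to Tmem170b over 660 kb with 153 contacts at 3.29 times, and the nearest diestrus loop, 60 kb away, held 262 at 4.01 times. Ptger3, a prostaglandin E receptor gene, was joined to Ankrd13c over 440 kb with 55 contacts at 3.41 times, where the diestrus loop 70 kb away held 124 at 6.26 times. Snai2, a transcriptional repressor gene of mesenchymal cells, was joined to Ube2v2 over 890 kb with 133 contacts at 3.84 times, against 180 at 3.72 times in the diestrus loop 40 kb away. Runx1 had a loop of 470 kb with 87 contacts at 3.07 times, and a diestrus loop that ended at the same far anchor held 368 at 5.95 times. Spi1, a transcription factor gene of myeloid cells, came from the list of immune cell markers and shares its anchor with Mybpc3. That anchor was joined to Arfgap2 over 160 kb with 83 contacts at 3.09 times, where the diestrus loop 80 kb away held 291 at 3.44 times.

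**Figure D5:**
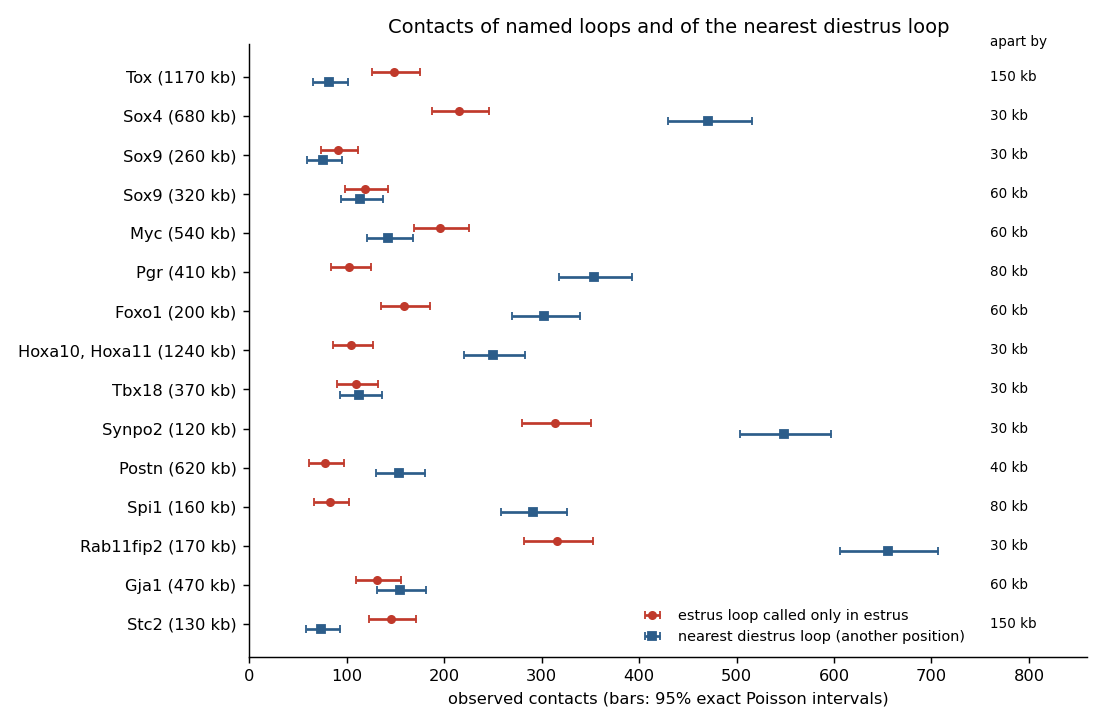
Observed contacts (x axis, with 95% exact Poisson intervals) of 15 named loops called only in estrus (red circles) and of the nearest diestrus loop, which lies at another position (blue squares). The distance between the pair is printed at the right and the loop length beside the gene. The estrus loop at Tox held 149 contacts and its nearest diestrus loop 82, while at Synpo2 the values were 314 and 549. Estrus values at the blue positions are not drawn, so a pair is no comparison of the stages. In these 2 examples the estrus list also held the diestrus loop, with 106 contacts at Tox and 520 at Synpo2.

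The loop with most contacts of the 522 lay in a gene-free stretch of chromosome 4, between 56420001 and 56480001, 250 kb and more from the nearest gene, Actl7b. Over 60 kb it held 602 contacts (554.9 to 652.1) at a strength of 4.15 and 3.78 times the largest of the 4, on 5 pixels. Its left anchor was new and its right anchor carried 5 diestrus loops. In diestrus the nearest loop, of 110 kb, held 149 contacts (126.0 to 174.9) at 2.19 times. Next in contacts came the loop of Gsn given above, whose right anchor holds 4930402F06Rik, and then those at Mgat5, which encodes an enzyme of N-glycan branching (361 contacts at 3.58 times), Gda, the guanine deaminase gene (349 at 3.09), Pitpnc1 and Psmd12, a lipid transfer and a proteasome gene (323 at 3.11), Srarp, the gene of a steroid receptor associated protein (320 at 4.0), and Rab11fip2, a gene of endosomal recycling (316 at 3.11). The nearest diestrus loop held 470 contacts at 6.12 times for Mgat5, 303 at 4.13 for Gda, 426 at 5.86 for Pitpnc1 and 354 at 4.44 for Srarp. Rab11fip2 had a diestrus loop 30 kb away with 655 contacts (605.8 to 707.1) at 5.41 times.

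An anchor between strong diestrus loops was found at Nufip1 and Gpalpp1, neighbouring genes on chromosome 14 chosen after their values were seen. Their shared bin at 76110001 was joined in estrus to 75870001 over 240 kb with 279 contacts (247.2 to 313.7) at 3.33 times, and to 76470001 over 360 kb with 258 contacts (227.5 to 291.5) at 4.52 times. In diestrus the same outer anchors were joined to bins 40 kb to either side, 75870001 to 76070001 with 612 contacts at 7.67 times and 76150001 to 76470001 with 642 at 7.41 times. Whether the estrus list also holds these loops is not given here, so no shift between the stages can be read from them. The bin at 76110001 carried 3 loops in estrus and 1 in diestrus, a loop of 900 kb with 73 contacts in estrus and 77 in diestrus.

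Among the 12 strongest of the 522 by donut expectation was a loop of 1220 kb on chromosome 15, between 59870001 and 61090001, with 85 contacts at 12.3 times the expected number. A diestrus loop 30 kb away held 124 at 8.24 times. Robo4, an endothelial guidance receptor gene on chromosome 9, had a loop of 530 kb from a new anchor with 62 contacts (47.5 to 79.5) at 8.05 times, beside a diestrus loop 30 kb away with 93 (75.1 to 113.9) at 12.3 times. On chromosome 16 a loop of 220 kb near Vgll3 held 170 contacts at 7.72 times, and a diestrus loop 30 kb away 264 at 3.28 times. Another 6 of the 12, besides those of Tox, held 50 to 111 contacts at 5.94 to 6.94 times, and of these 6 only the loop at Smyd2, a lysine methyltransferase gene, had an end of a gene in an anchor (50 contacts at 6.44).

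Over all 522 loops, 229 (43.9%, 39.6% to 48.2%) had a protein-coding gene that began or ended in an anchor, 42 (8.05%) in both anchors and 187 (35.8%) in 1. The share was the same, 43.9% (43.0% to 44.8%), in estrus loops with a counterpart, and 39.6% (36.3% to 42.9%) in loops called only in diestrus. Both anchors lay within 1 gene in 14 (2.68%, 1.47% to 4.46%) of the 522, 7.12% (6.66% to 7.60%) of loops with a counterpart and 5.31% (3.91% to 7.01%) of those called only in diestrus. In all 306 protein-coding genes had an end at a loop called only in estrus, which is 6.78% of the 4516 at any well-covered estrus loop. For diestrus this was 458 of 4597, or 9.96%. Of the 306 genes, 178 also had a well-covered estrus loop with a counterpart, and 72 had no end in an anchor of any diestrus loop. These 72 include Stc2 and Tox, whose bodies do hold anchors of diestrus loops. The same count over all genes at well-covered estrus loops is not given here, so the 72 have no share beside them. Counting all loops regardless of coverage, 235 had more loops in estrus, 57 equal numbers and 14 fewer, a split that the choice of these genes favours.

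Genes of 12 lists, with 239 of 241 symbols matched, were then counted. At a well-covered estrus loop there were 101 list genes, of which 10 (9.90%) were at a loop called only in estrus, beside 6.78% over all genes. By list these were 2 of 17 estrogen-responsive genes (Myc and Pgr), 2 of 15 progesterone-responsive and implantation genes (Hoxa10 and Hoxa11), 2 of 10 steroid receptors and coregulators (Foxo1 and Pgr), 4 of 14 patterning genes (Hoxa10, Hoxa11, Sox9 and Tbx18), 1 of 8 stromal markers (Postn), 1 of 9 smooth muscle markers (Synpo2) and 1 of 2 immune cell markers (Spi1). No gene was at such a loop among 18 listed genes of Wnt, BMP and FGF signalling and 5 listed endothelial markers. The same held for 3 listed genes each of the chromatin loop machinery, epithelial markers and ubiquitously expressed genes. Wnt9a and Fgf17, absent from the signalling list and chosen after their values were seen, each had an end at 1 loop called only in estrus. The loop of Wnt9a held 60 contacts at 3.04 times and that of Fgf17 165 at 3.09 times. In diestrus, 12 of 105 list genes were at a loop called only there, beside 458 of 4597 (9.96%) over all genes. Hoxa10 and Hoxa11 stand for 1 loop, and Pgr is on 2 lists, so these counts are not independent. The genes of 5 miRNAs lay in anchors of the 522, among them Mir186 with 75 contacts at 3.5 times. The number of miRNA genes at all well-covered estrus loops is not given here, so this count has no share beside it.

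The 217 genes of any kind whose start lay in an anchor of the 522 loops had 250 promoter entries, with a median GC content of 55.5% (53.0% to 57.3%), against 53.0% (52.7% to 53.0%) for all 31396 promoters. The CTCF core, spelled as above and searched on both strands, occurred in 9 of 250 (3.60%), in 4.74% of 3943 promoters at estrus loops with a counterpart and in 2.47% of all promoters. The full estrogen response element, GGTCA and TGACC with any 3 bases between them, occurred in 0 of 250, in 3 of 3943 (0.0761%) and in 23 of all 31396 (0.0733%). Its first arm GGTCA, which lies within the full element, occurred in 39.2%, 38.8% and 40.7% of the same sets. The hypoxia core ACGTG occurred in 27.2% (68 of 250), 22.2% and 19.7%. In the 40 promoters that lay in a new anchor, the CTCF core occurred in 0 and the hypoxia core in 17 (42.5%). Some of the 217 genes had several entries and 40 entries are few, so no difference is read from these shares. A promoter window is a small piece of a 10 kb anchor, and a match is a run of letters, not a bound site.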

How the data were processed

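Uteri of CD-1 mice in estrus and diestrus gave 1 Hi-C library each, built with an Arima HiC kit according to the labels. Juicer and mm10 are named in the submitters' processing notes, and no source used here states versions or caller settings. Each deposited list has the columns of HiCCUPS, per the file headers, with 1 loop per line. Contacts and merged pixels are raw counts deposited by the authors. For 4 neighbourhoods the authors deposited the expected contacts, a signal on the scale of the raw contacts, and q-values. The anchor positions in the deposited files are of another kind (other: bases of 10 kb bins). Only called loops are listed, so contacts may exist where no loop is listed. Loop contacts sum to 4153485 in estrus and 4533525 in diestrus, and full depth is not used here.

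Loops were matched by position with Python 3.11.15, pandas 2.3.3, numpy 2.4.6 and scipy 1.17.1. The matching was checked on a copy of the estrus list with some loops removed at random and the others shifted by up to 20 kb. At 95%, shares have Clopper-Pearson intervals, contacts exact Poisson intervals and medians intervals from binomial order statistics. They cover counting error or chance over the loops listed, not the spread between animals, since each stage has 1 library. The sequenced pairs carry no molecular identifiers. Genes and promoters came from RefSeq tables of GRCm38.p6. The gene table has no strand, so a gene was placed at an anchor by either end. The loops and gene lists were chosen with earlier results of these data known. Genes were named at the 12 strongest loops, the 8 with most contacts, the 8 largest clusters and up to 5 per list, with Esr1, Pgr and Epas1 whatever their values. 1 of the 12 strongest loops is not reported here. Predicted genes were left out, ties were broken by contacts and then name, and genes chosen later are marked as such. Alternative limits, tolerances and gene assignments were tried.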

Additional observations from a re-analysis of the deposited data

How the results depend on the processing

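There was 1 library per stage, so no replicate could be left out. No paired analysis was possible because each stage has 1 library and no result comes from a test. Of 70 values recomputed for 7 results under 16 settings, 22 stayed close to those reported and 48 moved. The order of the stages did not turn: loops called only in diestrus outnumbered those called only in estrus under each of the 9 other selections. With at least 30 contacts there were 1056 loops called only in estrus (7.65% of well-covered loops) and 1526 only in diestrus, the estrus loops with a median of 480 kb, 311 with a new anchor and 16 in clusters of 3 or more. With at least 100 contacts the values were 183 (2.08%), 323, 200 kb, 76 and 0. With strength at least 2.5 they were 1269 (8.17%), 2105, 260 kb, 496 and 23, and with at least 4 they were 115 (1.49%), 204, 410 kb, 39 and 0, with a gene end at 34.8%. Strength against the largest of 4 expected values left 58 (0.855%) and 150, with 370 kb, 28 and 0. A tolerance of 10 kb gave 6.22% and 290 kb, and one of 50 kb gave 276 (2.29%), 551 and 102 with a new anchor. Requiring at least 2 pixels, chosen after seeing the data, gave 204 (1.96%), 378, 270 kb and 79. These settings keep other loops by construction, so counts and lengths move with them. Under the settings with at least 100 contacts, strength at least 4 and the largest of 4, the cluster beyond Tox fell below 3 loops. A new anchor defined at 50 kb left 67 loops and at the identical bin 283. A cluster gap of 200 kb gave 6 loops in clusters. Gene ends within 5 kb gave 58.8%, any base of a gene 79.9%, and starts of protein-coding genes from the promoter table, also chosen after seeing the data, 24.9% (32.2% with that table's other genes included). Without chromosome 7 no result moved.

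Of the 522 loops, 339 hold under 100 contacts and 318 rest on 1 pixel, and the contacts at the same position in diestrus were not used here. Whether a loop listed in estrus alone differs from diestrus in contacts, or passed the caller's threshold in one library by counting error, was not tested. The diestrus list held more loops and contacts, and its part in the share of single-stage loops was not tested.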
